A study of Mus musculus with 9 samples.

Results

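In mouse oligodendrocyte progenitor cells (OPCs) and the oligodendrocytes (OLs) made from them, 234 broad domains of the histone mark H3K27ac kept about the same acetylated length in both states. They were chosen among 28896 domains on chromosomes 1 to 19, of which they make up 0.81%. To find them, the H3K27ac peaks of 4 lists, OL and OPC of each of 2 lines, were pooled, peaks within 12.5 kb were joined into a domain, and the length covered by each list was measured. A domain was kept if every list covered at least 6 kb of it and the OL to OPC ratio of covered length lay between 0.67 and 1.5 in each line. The covered lengths, their ratios and differences and the overlap of covered bases therefore come from the values that chose the domains, and they are given as a description with no test. SOX6, mapped by separate immunoprecipitations, was not used in the choice.

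The study mapped H3K27ac and the transcription factor SOX6 by chromatin immunoprecipitation and sequencing, and its title concerns transient gene melting and the timing of oligodendrocyte maturation. The OL was positive for the surface antigen O1, was described by the labels as an intermediate stage and was collected on a magnetic cell sorter. The OPC was grown in medium with bFGF and PDGFA and had been sorted for CD140a and NG2. Cells of both states came from the epiblast stem cell lines EpiSC5 and 129O1, which the labels trace to strains 129SvEv and 129S1/SvImJ, without SHH during maintenance or differentiation. H3K27ac was mapped in OL and OPC of both lines with 9 µg of antibody per sample. SOX6 was mapped with 15 µg of antibody in OL of EpiSC5 alone and in OPC of both lines, so 1 OL list stood against 2 OPC lists. Each list is 1 library of 1 line, and nothing states separate cultures, so the spread between lists is that between 2 lines and may be partly technical. The 2 input samples were not analysed here.

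H3K27ac marks active promoters and enhancers, and long clusters of acetylated elements often lie at genes that define a cell type or that every cell transcribes strongly. In the oligodendrocyte lineage, OLIG2, SOX10 and SOX8 act from the progenitor to the mature cell, while SOX6 is known in mouse as a factor that keeps progenitors from maturing. NOTCH signalling and its HES targets also hold progenitors back, and microRNAs such as miR-219 are known in mouse to repress progenitor genes, Sox6 and Hes5 among them.

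The lists differ in size, which bears on every value below. On chromosomes 1 to 19 the H3K27ac lists held 33058 and 30443 peaks in 129O1 and EpiSC5 OL and 29975 and 26967 peaks in 129O1 and EpiSC5 OPC. The SOX6 list of OL held 3858 peaks, against 22320 and 15166 peaks in 129O1 and EpiSC5 OPC. Peak lists hold no read counts, so depth is unknown here and no counting interval can be given. The summed acetylated length at 13 oligodendrocyte markers was 232 and 244 kb in OL and 62.8 and 42.4 kb in OPC, so the groups did not overlap. At 12 OPC markers it was 119 and 92.9 kb in OL, compared with 160 and 125 kb in OPC, where the groups did not overlap either. Pdgfra, Ptprz1 and Pcdh15 held much of that difference, such as Pdgfra with 2.55 and 1.54 kb in OL and 15.2 and 13.1 kb in OPC. Matn4, Gpr17 and Sox10 went the other way in both lines, such as Gpr17 with 14.3 and 11.6 kb in OL and 11.4 and 5.73 kb in OPC. The sum thus does not stand for each OPC marker. At 9 neuron markers it was 43.9 and 28.3 kb in OL and 61.04 and 52.1 kb in OPC, which did not overlap. Map2 held much of that difference, with 15.5 and 9.09 kb in OL and 37.4 and 31.0 kb in OPC. Elavl3 went the other way, with 7.94 and 6.78 kb in OL and 2.46 and 1.81 kb in OPC, so the sum does not stand for each neuron marker. At 9 astrocyte markers the sum was 33.8 to 64.1 kb over the 4 lists, with overlap. At 6 microglia markers the sum was 5.13 to 8.16 kb and at 6 pluripotency markers 0.265 to 6.19 kb over the 4 lists. The part of these cell types in the results below was not tested. None of the 13 oligodendrocyte markers and 4 of the 12 OPC markers (Cspg4, Cacng4, Olig1 and Olig2) overlapped a kept domain.

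Sequences are shown for promoters with SOX6 in every list and for microRNA genes, since these 2 sets carry the SOX6 and acetylation results below. Promoter windows, from 250 bases before to 50 after a gene's start (RefSeq, GRCm38.p6, the assembly that mm10 names), are drawn from those overlapped by SOX6 peaks of all 3 lists, of which kept domains held 40. The 6 shown were chosen because their domains are described below, and each was covered whole by H3K27ac in all 4 lists, while 39 of the 40 overlapped H3K27ac of all 4. Among the 6, the capitals mark the only match to AACAAT, a core SOX motif searched on both strands (ATTGTT on the other).
Sox2, chr3:34649745-34650044, plus strand: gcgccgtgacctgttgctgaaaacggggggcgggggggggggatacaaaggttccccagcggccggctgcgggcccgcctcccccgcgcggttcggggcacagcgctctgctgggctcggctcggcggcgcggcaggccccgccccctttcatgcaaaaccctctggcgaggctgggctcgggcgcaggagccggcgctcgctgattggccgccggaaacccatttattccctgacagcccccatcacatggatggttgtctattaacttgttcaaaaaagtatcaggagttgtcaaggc
Olig2, chr16:91225300-91225599, plus strand: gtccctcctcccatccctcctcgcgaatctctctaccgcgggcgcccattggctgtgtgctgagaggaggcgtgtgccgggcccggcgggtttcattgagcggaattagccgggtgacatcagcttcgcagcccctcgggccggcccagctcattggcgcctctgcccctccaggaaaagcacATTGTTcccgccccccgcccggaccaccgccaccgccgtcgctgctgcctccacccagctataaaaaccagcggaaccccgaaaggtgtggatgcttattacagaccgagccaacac
Hes5, chr4:154960673-154960972, plus strand: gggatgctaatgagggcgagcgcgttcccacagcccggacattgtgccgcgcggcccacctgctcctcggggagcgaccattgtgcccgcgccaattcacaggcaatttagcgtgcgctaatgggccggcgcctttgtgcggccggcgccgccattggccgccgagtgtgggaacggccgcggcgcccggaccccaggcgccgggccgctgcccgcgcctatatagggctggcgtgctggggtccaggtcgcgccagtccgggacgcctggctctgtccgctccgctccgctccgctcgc
Tuba1a, chr15:98953452-98953751, minus strand: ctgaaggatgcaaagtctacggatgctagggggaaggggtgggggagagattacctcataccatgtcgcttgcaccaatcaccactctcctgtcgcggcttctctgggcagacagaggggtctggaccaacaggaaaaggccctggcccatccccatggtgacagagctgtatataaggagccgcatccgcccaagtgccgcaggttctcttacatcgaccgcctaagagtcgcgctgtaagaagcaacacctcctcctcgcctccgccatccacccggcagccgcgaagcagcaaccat
Taf10, chr7:105744289-105744588, minus strand: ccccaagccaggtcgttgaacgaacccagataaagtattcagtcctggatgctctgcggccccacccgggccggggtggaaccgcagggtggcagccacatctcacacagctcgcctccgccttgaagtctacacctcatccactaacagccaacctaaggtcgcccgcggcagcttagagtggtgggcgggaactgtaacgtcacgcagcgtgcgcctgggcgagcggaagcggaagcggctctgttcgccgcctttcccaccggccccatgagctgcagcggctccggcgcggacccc
Zbtb1, chr12:76370270-76370569, plus strand: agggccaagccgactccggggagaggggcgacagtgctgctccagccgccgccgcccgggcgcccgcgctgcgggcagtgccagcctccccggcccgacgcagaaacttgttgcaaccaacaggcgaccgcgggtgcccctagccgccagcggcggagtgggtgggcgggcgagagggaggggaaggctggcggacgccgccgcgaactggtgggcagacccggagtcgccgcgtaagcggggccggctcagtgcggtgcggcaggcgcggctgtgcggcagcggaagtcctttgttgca
The Sox2, Olig2, Hes5 and Tuba1a windows belong to a pluripotency and progenitor factor, a lineage factor, a NOTCH target and a tubulin. The Taf10 and Zbtb1 windows lie in 2 of the 3 kept domains where SOX6 was called higher in OL.

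Over all kept domains, 663 promoter windows were listed. H3K27ac of all 4 lists overlapped 71.5% of them, against 26.2% of the 31396 windows of the whole table. SOX6 overlapped 13.1% of the 663 windows in OL, against 30.5% and 15.8% in 129O1 and EpiSC5 OPC. Over the whole table these shares were 5.28%, 11.2% and 5.74%. Among windows acetylated in all 4 lists, SOX6 of all 3 lists overlapped 8.23% of the 474 in kept domains and 7.74% of all 8221, so this share was close between kept domains and the rest of the acetylated promoters. AACAAT or ATTGTT occurred in 6.94% of the windows in kept domains and in 10.6% of all windows, but among windows acetylated in all 4 lists the order turned, with 5.91% in kept domains and 5.12% of all. A window can be listed for more than 1 start of a gene, so windows are not independent.

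Kept domains overlapped 25 annotated microRNA genes. The 6 that stand in the microRNA list, with Mirlet7c-2 beside Mirlet7b, are described below, and mature sequences of these are shown (RefSeq, GRCm38.p6), with the seed, bases 2 to 8, in capitals.
miR-9-5p (Mir9-2 and Mir9-3): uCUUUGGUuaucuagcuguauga
miR-9-3p (Mir9-2 and Mir9-3): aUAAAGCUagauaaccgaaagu
let-7b-5p (Mirlet7b): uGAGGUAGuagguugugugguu
let-7c-5p (Mirlet7c-2): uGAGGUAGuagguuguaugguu
miR-181a-5p (Mir181a-1): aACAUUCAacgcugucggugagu
miR-181b-5p (Mir181b-1): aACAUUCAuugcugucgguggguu
miR-219a-5p (Mir219a-1): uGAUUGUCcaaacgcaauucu
The let-7 pair shared the seed GAGGUAG and the miR-181 pair the seed ACAUUCA, and the same miR-9 sequences come from the genes of 2 kept domains. These sequences identify the genes. Acetylation and SOX6 peaks say nothing here of how much of each microRNA was made.

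The kept domains were long and their acetylation was spread over several peaks. They spanned 6.995 to 136 kb with a median of 42.0 kb, and the median domain held 5 peaks in each of the 4 lists. Median covered length was 11.3 and 8.92 kb in 129O1 and EpiSC5 OL, against 11.01 and 8.93 kb in 129O1 and EpiSC5 OPC. The medians lay closer between states than between lines, but the choice had bounded the ratio of states within each line. The 129O1 lists were also longer, with 49.98 and 47.3 Mb in OL and OPC, against 42.8 and 36.2 Mb in EpiSC5. The order is therefore not read as a result. The median OL to OPC ratio was 0.994 in 129O1 and 1.01 in EpiSC5, inside the limits the choice had set. The ratio was above 1 in both lines at 81 domains, at or below 1 in both at 82, and on different sides in the 2 lines at the other 71. The domains held 5.95% and 5.60% of all acetylated bases in OL and 6.26% and 6.58% in 129O1 and EpiSC5 OPC.

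The limits cut through a continuum. Just inside 6 kb lay a domain at Rapgef3, with a smallest covered length of 6.02 kb, and just outside lay one at Serf2 and Hypk with 5.99 kb. In 129O1 the ratio was 0.672 at the kept domain of Plekhb1 and 0.674 at the Sox6 start, against 0.658 at the excluded domain of Rps6kb1. At the upper limit in 129O1, Cacng4 was kept with 1.496 and Rere was left out with 1.52. In EpiSC5 the ratio was 0.677 at Mrpl48, inside, against 0.668 at the histone genes H1f2 and H3c3, outside. At its upper limit Kcnj10 was kept with 1.48, and a domain at Arfip2 was left out with 1.503.

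The domain with the largest smallest length surrounded Sox2, which encodes a SOX factor of pluripotent and neural progenitor cells. It lay on chromosome 3 from 34637053 to 34680776 and covered 23.2 and 22.9 kb in OL and 23.9 and 21.5 kb in 129O1 and EpiSC5 OPC. The 4 values were close, and the states overlapped. The acetylated bases of the 2 states were shared at 77.3% in 129O1 and 78.9% in EpiSC5, counted as bases covered in both states over bases covered in either.

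Mir9-2 followed, a microRNA gene of neural progenitors, on chromosome 13 from 83715126 to 83750440. Its domain covered 28.8 and 21.3 kb in OL and 32.3 and 26.9 kb in OPC, lower in OL in each line, and 89.2% and 79.3% of the bases were shared between states. Mir9-3, on chromosome 7 from 79496237 to 79593325, had the greatest length of any kept domain in a list. It covered 41.1 and 16.1 kb in OL and 53.3 and 21.3 kb in 129O1 and EpiSC5 OPC. These values lay further apart between lines than between states, where the choice had bounded the ratio within each line. At both Mir9 genes the hairpin itself was covered whole by H3K27ac in all 4 lists.

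The let-7 domain on chromosome 15, from 85652410 to 85709983, covered 23.9 and 20.0 kb in OL and 19.6 and 21.996 kb in 129O1 and EpiSC5 OPC. Its states overlapped. The hairpins of Mirlet7b and Mirlet7c-2 lay near its end and were covered by no H3K27ac peak in any of the 4 lists, so the domain's acetylation lies elsewhere in it. The Mir181a-1 and Mir181b-1 domain, on chromosome 1 from 137897700 to 137967291, covered 20.0 and 27.5 kb in OL and 17.4 and 21.8 kb in OPC. EpiSC5 was the wider line in each state there. Yet the hairpins of Mir181a-1 and Mir181b-1 had no H3K27ac cover in OL of EpiSC5, while each of the other lists covered them at least in part. Mir219a-1, whose mature product promotes oligodendrocyte maturation in mouse, lay in a domain of 13.0 and 9.53 kb in OL and 8.88 and 6.51 kb in OPC. Its ratios of 1.47 and 1.46 put it near the upper limit of the choice.

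The 12 domains with the largest smallest length also held Sox8, Sox6 and Cspg4. Sox8, a SOX factor related to SOX10, had 35.3 and 18.7 kb in OL and 26.1 and 19.9 kb in 129O1 and EpiSC5 OPC. A domain within the body of Sox6 itself had 25.5 and 21.6 kb in OL and 23.9 and 19.5 kb in OPC. Cspg4, which encodes the progenitor proteoglycan NG2 used for sorting, had 22.1 and 18.1 kb in OL and 27.4 and 19.7 kb in OPC. Lengths at Sox8, at the Sox6 body and at Cspg4 overlapped between states.

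The same 12 held 5 domains at genes of other roles. Gab1, an adaptor of growth factor receptors, covered 29.99 and 28.2 kb in OL and 27.8 and 21.2 kb in OPC, so its states did not overlap. Prex1, an activator of RAC, covered 27.3 and 23.6 kb in OL and 28.5 and 19.8 kb in OPC. Only 50.7% and 35.5% of its bases in 129O1 and EpiSC5 were shared between states. Chd2, a chromatin remodeller, covered 18.6 and 19.9 kb in OL and 19.2 and 20.9 kb in OPC. Epn2, an endocytic adaptor, covered 22.8 and 24.5 kb in OL and 26.98 and 18.3 kb in OPC, with ratios of 0.846 in 129O1 and 1.34 in EpiSC5. The Phf10 domain, named for a subunit of a chromatin remodelling complex, covered 22.8 and 21.3 kb in OL and 22.3 and 17.3 kb in OPC. The promoter windows of Gm3417, Gm3448 and Tcte3 in the Phf10 domain were equal in all 300 bases, so reads of these copies could be split and values of the domain are uncertain.

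**Figure D1:**
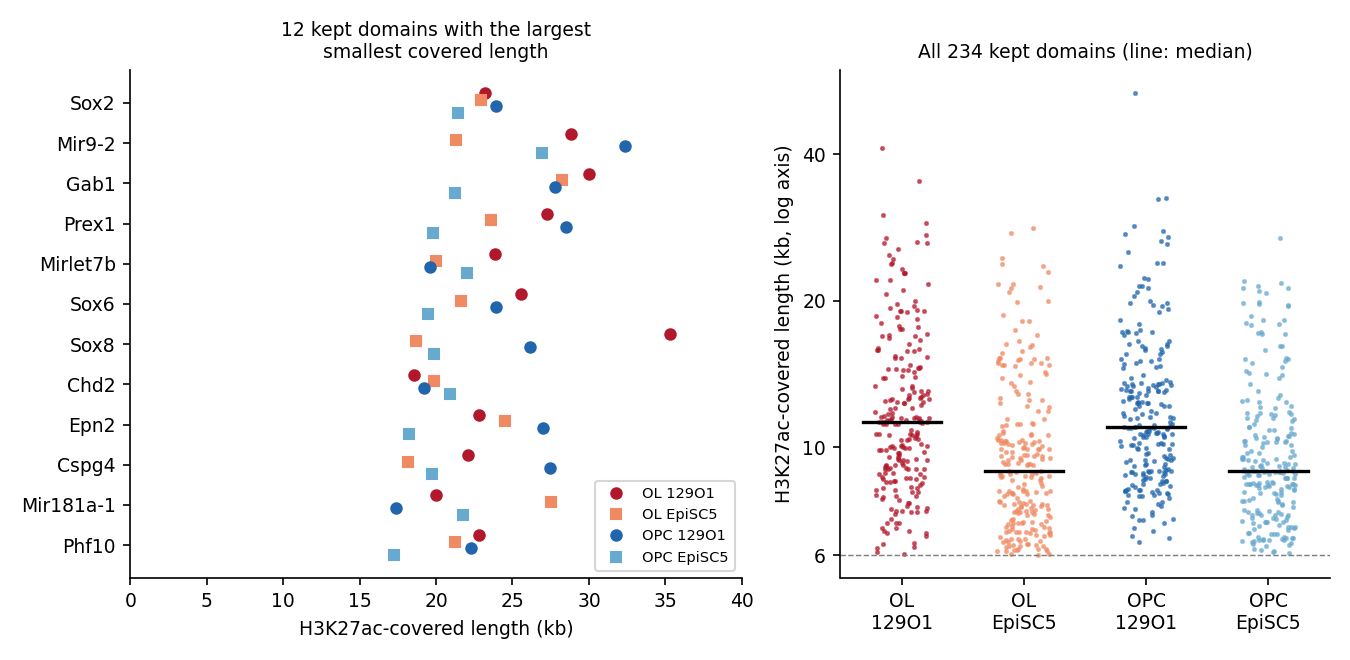
Left, length covered by H3K27ac (kb) in OL and OPC of each line at the 12 kept domains with the largest smallest length; right, the same for all 234 kept domains on a log axis, with a line at each list's median and a dashed line at 6 kb. The Sox2 values lie within 21.5 to 23.9 kb, while Sox8 reaches 35.3 kb in OL of 129O1 alone, and medians for 129O1 and EpiSC5 are 11.3 and 8.92 kb in OL and 11.01 and 8.93 kb in OPC.

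An equal covered length did not mean that the same bases were covered. Within a kept domain the median share of acetylated bases common to OL and OPC was 68.1% in 129O1 and 58.5% in EpiSC5. Between EpiSC5 and 129O1 it was 72.4% in OL and 77.2% in OPC. Unequal lengths alone would have allowed medians of 85.8% and 84.3% between states and 82.99% and 83.2% between lines. Over all kept domains, 43.7% of the bases covered in any list were covered in all 4. A further 9.42% were covered in OL of both lines and in no OPC list, and 6.67% in OPC of both lines and in no OL list. In 20 domains under 50% of the bases were shared between states in both lines.

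The least shared domain lay in Rptor, which encodes a subunit of the kinase complex MTORC1. It covered 9.40 and 6.90 kb in OL and 8.94 and 8.04 kb in 129O1 and EpiSC5 OPC, yet the states shared 19.4% of its bases in 129O1 and 12.8% in EpiSC5. Between EpiSC5 and 129O1, 56.5% of its bases were shared in OL and 72.5% in OPC. Farp1 shared 30.5% and 28.9% between states in 129O1 and EpiSC5. At the other end stood Olig2 with 94.4% and 87.0%, and Marcks, an actin-binding substrate of protein kinase C, with 94.1% and 90.4%. Rptor, Farp1 and Marcks were picked for their place in this order after values were seen.

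**Figure D2:**
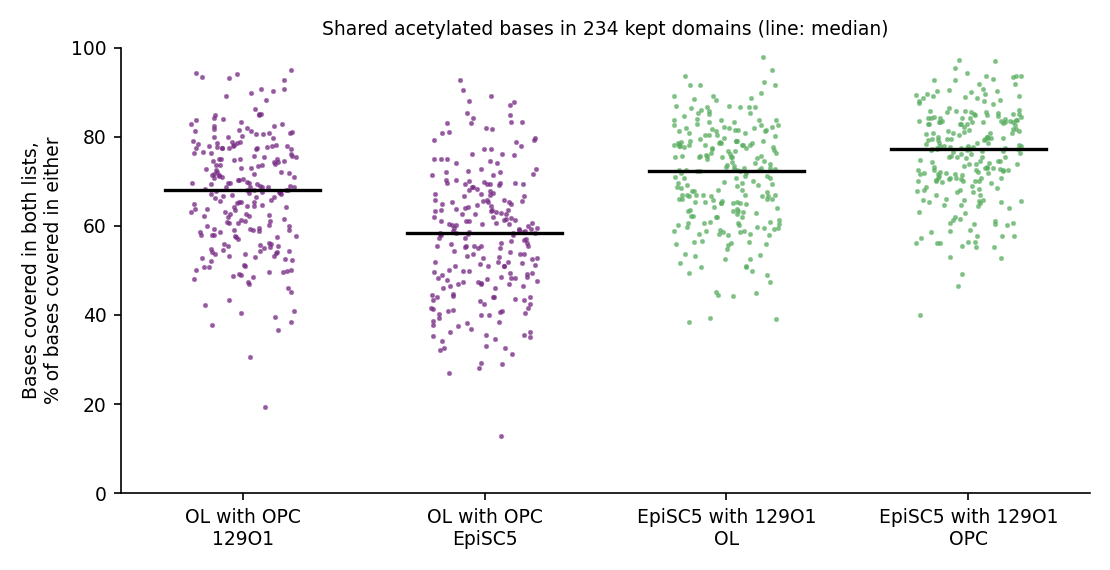
Percentage of acetylated bases covered in both lists of a pair, of bases covered in either, for each of the 234 kept domains; purple points compare OL with OPC within a line, green points EpiSC5 with 129O1 within a state, and lines are medians. Medians are 68.1% and 58.5% between states and 72.4% and 77.2% between lines, and the lowest point, at 12.8%, is Rptor in EpiSC5.

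Kept domains overlapped 543 of 20665 coding genes (2.63%). Domains at least 6 kb long in both OL lists and over 1.5 times wider in OL in both lines, 589 in all, overlapped 3.68% of the coding genes. Their counterparts narrower in OL, 154 domains, overlapped 1.11%. The kept domains held 10 of 44 lineage transcription factors, namely Sox2, Sox4, Sox6, Sox8, Olig1, Olig2, Nkx2-2, Hes5, Tcf4 and Tcf12. Of the same list, 11 overlapped a domain wider in OL, with Sox10, Myrf and Tcf7l2 among them, and 6 overlapped a narrower one, such as Nfia and Nfib. A gene with several domains can stand in more than 1 class, as Sox6 does with kept and wider ones.

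None of 22 immature oligodendrocyte genes overlapped a kept domain, while 12 overlapped a domain wider in OL. Of 33 myelin genes 2 (6.06%) lay in kept domains, Adamts4 and Hapln2, and 12 in wider ones, such as Mbp, Mobp and Cnp. Adamts4 is a protease and Hapln2 a link protein of the matrix at nodes. The Hapln2 start was covered by H3K27ac in both OL lists and in neither OPC list. The kept length is thus that of the whole domain, which Hapln2 shares with Bcan, and not that of its start. Of 24 MAPK feedback genes, targets and brakes of growth factor signalling, 2 lay in kept domains, Fos and Spry2, none in wider ones and 7 in narrower ones.

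Lists of genes that most cells use had members in kept domains too. Of 29 chromatin and RNA housekeeping genes 6 were in kept domains, such as Kdm6b, Srsf3, Hsp90ab1, Malat1 and Neat1. Of 26 lipid and glucose metabolism genes 5 were (Eno1, Gapdh, Srebf2, Fads1 and Scd2), and of 31 cytoskeleton genes 5 were (Actb, Actn4, Marcks, Tubb2b and Tuba1a). The list of 24 OPC genes gave 5 (Cspg4, Bcan, Sulf2, Dscam and Cacng4), and that of 29 genes of the Wnt, Notch, BMP and TGF-beta pathways gave 3 (Notch1, Dll1 and Id3). Of 42 listed microRNA genes 6 overlapped a kept domain, against 2.20% of all microRNA genes. Of 26 cell cycle genes 1 did, Cdkn1a, of 14 astrocyte genes 1, Id3, and of 13 neuron genes 1, Tubb3. No microglia gene of 10 and no pluripotency gene of 12 did. Long genes can overlap domains more easily, and domains were chosen on these samples, so these counts describe where the domains lie.

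**Figure D3:**
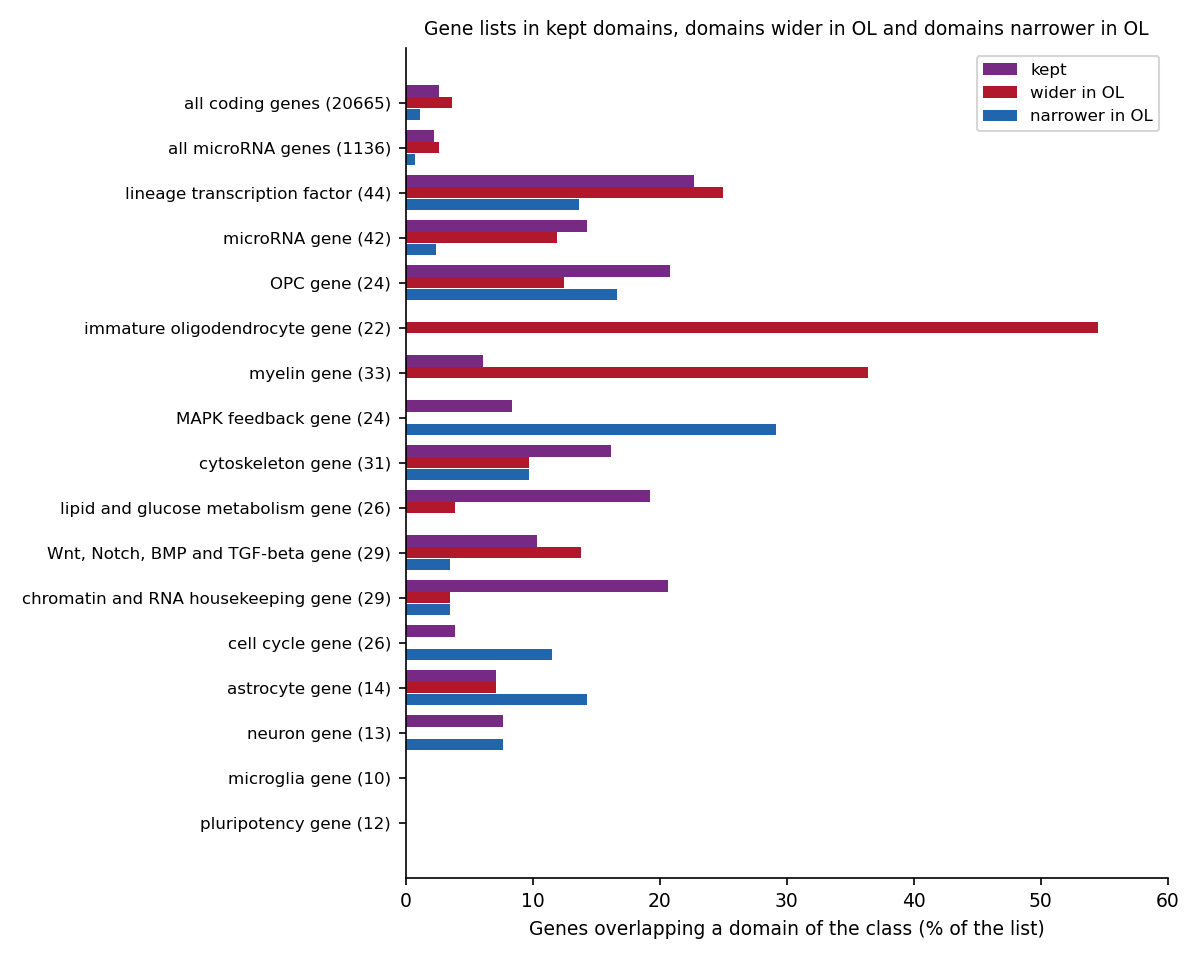
Share of each gene list (%, number of genes on chromosomes 1 to 19 in brackets) that overlaps a kept domain, a domain wider in OL or a domain narrower in OL. Immature oligodendrocyte and myelin genes have 12 members each in domains wider in OL, while 10 of 44 lineage transcription factors lie in kept domains.

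SOX6 was found in nearly all kept domains in OPC and in about as many with as without it in OL. In OL of EpiSC5, 123 of 234 kept domains (52.6%) held a SOX6 peak, against 233 (99.6%) in OPC of 129O1 and 220 (94.0%) in OPC of EpiSC5. Over all domains the shares were 8.93% in OL and 44.8% and 34% in 129O1 and EpiSC5 OPC, but most domains are far shorter. Of the 220 with SOX6 in EpiSC5 OPC, 119 (54.1%) also had it in EpiSC5 OL, against 16.9% of all such domains, 49.7% of those wider in OL and 21.2% of those narrower in OL. The domains nearest in make, 162 with at least 6 kb in all 4 lists and a ratio outside the band, stood above the kept ones, with SOX6 in OL at 60.5% and at 62.1% of those with SOX6 in EpiSC5 OPC. All 119 had SOX6 in all 3 lists. In 19 kept domains SOX6 covered more bases in OL than in OPC of EpiSC5 and in 205 it covered fewer, where 9.59% of the 13999 domains with SOX6 in any list had more in OL. The Rexo1 and Abhd17a domain on chromosome 10 was the only one with no SOX6 peak in any list.

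Peaks were also counted per acetylated length. Kept domains held 5.16 SOX6 peaks per 100 kb covered in OL, against 25.04 and 17.3 in 129O1 and EpiSC5 OPC. All domains together held 4.23 in OL and 23.5 and 16.3 in OPC. Domains wider in OL held 5.85 in OL and 13.0 and 8.99 in OPC, and domains narrower in OL held 2.13 in OL and 25.5 and 20.4 in OPC. The 162 domains outside the band held 7.96 in OL and 17.2 and 12.4 in OPC. Kept domains thus lay below those 162 in OL and above them in OPC, and nearer to the narrower ones in OPC and to the wider ones in OL. These densities come from 1 OL list and 2 OPC lists and were not tested.

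**Figure D4:**
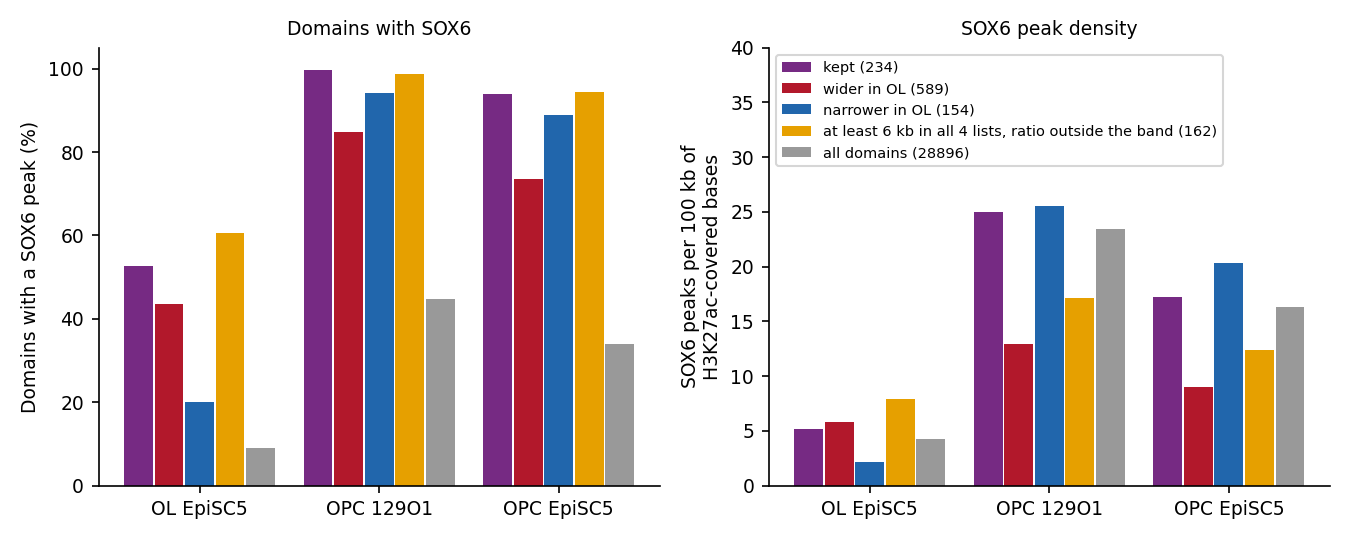
Left, share of domains with at least 1 SOX6 peak (%); right, SOX6 peaks per 100 kb of bases covered by H3K27ac in any list, for the SOX6 lists of OL and OPC, in kept domains, domains wider or narrower in OL, the 162 of at least 6 kb in all 4 lists outside the ratio band, and all domains. Kept domains stand at 52.6% in OL and at 99.6% and 94.0% in 129O1 and EpiSC5 OPC, and at 5.16, 25.04 and 17.3 peaks per 100 kb.

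Most SOX6 summits in kept domains lay on acetylation common to all lists. Of 196 SOX6 summits in OL, 84.7% lay on bases covered by H3K27ac in all 4 lists, against 75.7% of 951 and 80.9% of 656 in 129O1 and EpiSC5 OPC. Over all domains 62.5% of OL summits did, and 45.2% of those in EpiSC5 OPC. The choice of kept domains required at least 6 kb in all 4 lists, which favours bases covered in all 4. The difference from all domains is therefore not read as a result about SOX6. SOX6 peaks covered 2.95% of these common bases in OL and 19.1% and 13.0% in OPC. On bases acetylated in OL of both lines alone they covered 0.566% in OL and 1.67% and 0.857% in OPC. On bases acetylated in OPC of both lines alone they covered 0.172% in OL and 5.93% and 4.14% in OPC.

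SOX6 peaks of OL overlapped those of OPC in part. Of the 196 OL peaks, 56.1% overlapped a SOX6 peak of EpiSC5 OPC and 71.4% one of 129O1 OPC. In turn 16.6% of the 656 EpiSC5 OPC peaks overlapped an OL peak, against 11.3% over all domains. Where start positions were known, 47.9% of the OL peaks and 25.1% and 20.1% of those in 129O1 and EpiSC5 OPC had their summit within 1 kb of a listed start. Over all domains these shares were 48.9%, 20.6% and 15.7%, so the higher share in OL was not confined to kept domains. Of EpiSC5 OPC peaks in kept domains, 41.1% of those overlapping an OL peak and 15.9% of the others lay within 1 kb.

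The length covered by SOX6 was compared between OL and OPC with limma across all domains with a mean of at least 0.3 kb, on log2 of covered kb plus 0.25, with Benjamini-Hochberg adjustment. The lone OL list was assumed to vary as the 2 OPC lists do, and the fit had 1 residual degree of freedom. Of 234 kept domains 213 passed this minimum, which a domain could meet through OPC alone. SOX6 was lower in OL at 139 of them at adjusted p under 0.05 and higher at 3, against 69.1% lower and 0.594% higher over the 4544 domains tested. The kept domains' 65.3% lower is near that background, and nothing particular to kept domains is read from it. Their median difference was −1.92, against −1.67 over all domains tested, and −0.92 against −0.65 with 1 kb added in place of 0.25. Of the 139, 81 had no SOX6 peak in OL and 58 had at least 1.

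These calls depended on how the short OL list was treated. With lengths scaled to equal totals the median over all tested domains moved to 0.41, and that of the kept domains to −0.49. On that scale 85 of 204 kept domains were lower in OL, against 39.4% of 4096 domains, and 27 (13.2%) were higher, against 28.4% of the 4096. Of the 213 kept domains tested with lengths as deposited, 94 had no SOX6 peak in OL, and scaling leaves OL at 0 there. Such domains met the minimum through OPC alone, so a lower call that persists at them is no test of the scaling. With no minimum on the mean, none of 233 kept domains passed the adjusted threshold in limma, and 133 had an unadjusted p under 0.05. OL was mapped in EpiSC5 alone, so line and state cannot be fully told apart in this comparison.

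At 3 kept domains SOX6 was higher in OL. The domain of Malat1 and Neat1, long noncoding RNAs of nuclear bodies, on chromosome 19 from 5786656 to 5827678, held 8 SOX6 peaks over 3334 bp in OL, against 4 over 1255 bp and 3 over 947 bp in 129O1 and EpiSC5 OPC. The OL value lay above both OPC values, with a difference of 1.42 ± 0.33 (log2, SE; limma, adjusted p = 0.045). This was the longest SOX6 cover of any kept domain in OL. Its H3K27ac covered 19.5 and 16.5 kb in OL and 20.0 and 14.2 kb in OPC.

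The domain of Rrp8 and Ilk, an RNA methyltransferase and a kinase linked to integrins, on chromosome 7 from 105728383 to 105752961, held 4 peaks over 1152 bp in OL. In OPC it held 1 peak in each line, of 237 and 195 bp in 129O1 and EpiSC5. The difference was 1.59 ± 0.18 (log2, SE; limma, adjusted p = 0.016). The Taf10 window printed above, for a subunit of the general factor TFIID, lies in it and was overlapped by SOX6 over 263 bases in OL and 237 and 195 bases in OPC. The domain of the zinc finger genes Zbtb25 and Zbtb1 had 961 bp in OL, against 318 and 302 bp in OPC, a difference of 1.11 ± 0.18 (log2, SE; limma, adjusted p = 0.024). All 3 remained higher with equal totals, but this is no test of them. That scaling raises the short OL list against both OPC lists, so a domain already higher in OL stays higher. With 1 kb as the added length, the difference at Malat1 and Neat1 was 1.05 (log2) and missed the threshold. At Rrp8 and Ilk it was 0.82 (log2) and still passed. With no minimum on the mean, no kept domain was called higher.

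Other kept domains with much SOX6 in OL were not called. Here and below, a SOX6 length under a gene's name is that of its whole domain, and peaks can lie far from the gene. Hes5 had 5 peaks over 2724 bp in OL, against 8 over 6483 bp and 3 over 1257 bp in 129O1 and EpiSC5 OPC. The OL value lay between the OPC values, and the difference was −0.10 ± 1.18 (log2, SE; limma, adjusted p = 0.94). Phf10 had 2031 bp in OL and 3935 and 1446 bp in OPC, again between them. Cacng4, a subunit of glutamate receptor complexes of OPCs, had 1589 bp in OL and 2715 and 2265 bp in OPC. A single OL peak of 1305 bp there had the authors' fold enrichment of 23.2.

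Marcks had 1330 bp in OL in 1 peak, against 2846 and 2157 bp in 129O1 and EpiSC5 OPC. Fam222b and Traf4 had 1307 bp in OL and 4006 and 2939 bp in OPC, and both OPC values lay above OL. Hsp90ab1, a chaperone gene, had 1189 bp in OL and 3776 and 517 bp in OPC, and Actb 1054 bp in OL and 1848 and 988 bp in OPC. At Hsp90ab1 and Actb the OL value fell between the OPC lines.

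Lineage factors had SOX6 in OPC at each of 12 kept domains in both lines, and 5 of the 12 had it in OL. SOX6 was called lower in OL at 8 of the 12 (limma, adjusted p under 0.05) and higher at none, beside 69.1% lower over all domains tested. With equal totals 5 were lower and 1 was higher, so the count is read as no result about lineage factors. Sox2 had 1 peak of 203 bp in OL, at the promoter window printed above, against 9 peaks over 2871 bp and 5 over 1506 bp in 129O1 and EpiSC5 OPC. Its difference was −2.37 ± 0.53 (log2, SE; limma, adjusted p = 0.041). With equal totals it was −0.73 and missed the threshold (limma, adjusted p = 0.074). The nearest SOX6 summit lay 17 bp from the Sox2 start in OL and 25 and 24 bp from it in OPC.

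Olig2 had 3 peaks over 1027 bp in OL, against 7 over 2743 bp and 5 over 2072 bp in 129O1 and EpiSC5 OPC. With −1.05 ± 0.34 it missed the threshold (log2, SE; limma, adjusted p = 0.082), and OL lay below both OPC lists. With equal totals Olig2 was higher in OL, by 1.14 (log2; limma, adjusted p = 0.044). Its summits lay 50 bp from the start in OL and 102 and 96 bp in OPC. Olig1, the neighbouring lineage factor, had no SOX6 peak in OL and 2060 and 1813 bp in OPC. Nkx2-2, a homeobox factor of the lineage, had 442 bp in OL and 2387 and 1225 bp in OPC (limma, adjusted p = 0.096). Where OL is at 0, neither a fold nor a p is given, because the fold would depend on the 0.25 kb added and the domain met the minimum through OPC alone.

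The Sox6 gene had 2 kept domains, 1 within its body and 1 at its start, both with no SOX6 peak in OL. The body domain, on chromosome 7 from 115614522 to 115688813, had 7 peaks over 4868 bp and 5 over 3825 bp in 129O1 and EpiSC5 OPC. The start domain had 1359 and 514 bp in OPC. H3K27ac at the start domain covered 9.27 and 7.30 kb in OL and 13.7 and 8.99 kb in OPC. Sox8 also had none in OL, against 5005 and 3000 bp in OPC, and so did the partner of OLIG proteins Tcf12, against 3133 and 2210 bp. Sox4, a SOX factor of progenitors, had none in OL and 572 and 367 bp in OPC. Tcf4, another partner of OLIG proteins, had 208 bp in OL and 3233 and 2614 bp in OPC at the wider of its 2 domains (limma, adjusted p = 0.016).

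Notch genes followed. Notch1, the receptor, had 250 bp in OL and 5360 and 2839 bp in 129O1 and EpiSC5 OPC, with OL below both (limma, adjusted p = 0.027). Dll1, a ligand, had none in OL and 3798 and 1783 bp in OPC. Id3, an inhibitor of basic helix-loop-helix factors and a BMP target, had none in OL and 1599 and 1162 bp in OPC. The difference at Notch1 was −3.06, and −1.30 with equal totals (log2). Dll1 and Id3 met the minimum through OPC alone and stay at 0 in OL under any scaling, so no count of calls is read for these pathways.

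Among the 5 microRNA domains, those of Mir9-3 and Mir219a-1 met the minimum through OPC alone, so no count of calls is read. Mir9-2 had 734 bp in OL and 5675 and 3064 bp in 129O1 and EpiSC5 OPC (−2.17 ± 0.51, log2, SE; limma, adjusted p = 0.046). Mir9-3 had none in OL and 6998 and 3561 bp in OPC, the longest SOX6 cover of a kept domain in 129O1 OPC. The Mir181a-1 domain had 268 bp in OL and 3331 and 2521 bp in OPC (limma, adjusted p = 0.018). The let-7 domain had 433 bp in OL and 1517 and 878 bp in OPC, which missed the threshold (limma, adjusted p = 0.13), and with equal totals it was higher in OL by 0.87 (log2; limma, adjusted p = 0.040). Mir219a-1 had SOX6 only in 129O1 OPC, 6 peaks over 2266 bp, and no peak in EpiSC5 of either state, so its OPC lists disagree.

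OPC genes had SOX6 in both OPC lists at all 5 kept domains and in OL at 3. The domains of Dscam and Sulf2 met the minimum through OPC alone, so no count of calls is read for these 5. Cspg4 had 175 bp in OL and 1707 and 1690 bp in 129O1 and EpiSC5 OPC (−2.20 ± 0.27, log2, SE; limma, adjusted p = 0.017). The OL value is of the whole domain, as the nearest OL summit lay 85749 bp from the Cspg4 start. In 129O1 and EpiSC5 OPC it lay 3319 and 3304 bp away. Dscam, an adhesion molecule, and Sulf2, a heparan sulphate sulphatase, had none in OL and up to 2606 and 1103 bp in OPC. Bcan, a matrix proteoglycan, shares its domain with the myelin gene Hapln2 and had 478 bp in OL against 2310 and 1556 bp in OPC (limma, adjusted p = 0.052). Adamts4 had 621 bp in OL, below both OPC values of 1817 and 944 bp (limma, adjusted p = 0.23). Neither domain with a myelin gene was called, but with equal totals Adamts4 was higher in OL by 1.19 (log2; limma, adjusted p = 0.041). Among MAPK feedback genes, Spry2 had 202 bp in OL and 770 and 514 bp in OPC (limma, adjusted p = 0.069), and Fos, at 488 and 326 bp in OPC and none in OL, fell under the minimum.

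Among cytoskeleton genes, SOX6 was called lower in OL at 3 of 5 domains, beside 69.1% over all domains tested, and with equal totals 1 was lower and 2 were higher. Tuba1a, an alpha-tubulin gene, had the longest SOX6 cover of any kept domain in EpiSC5 OPC, with 1083 bp in OL and 4305 and 4599 bp in 129O1 and EpiSC5 OPC. Its difference was −1.82 ± 0.23 (log2, SE; limma, adjusted p = 0.017), which turned to 0.40 with equal totals. Tubb2b, a beta-tubulin gene, had 281 bp in OL and 3091 and 3394 bp in OPC (limma, adjusted p = 0.015). Among the 6 housekeeping domains, that of Malat1 and Neat1 had more SOX6 in OL, as given above. Kdm6b, a histone demethylase, had none in OL and 1475 and 1038 bp in OPC. It met the minimum through OPC alone, so no count of calls is read for these 6. Of the 5 lipid and glucose domains 2 had SOX6 in OL, so no count of calls is read for this list either. The Gapdh domain had 180 bp in OL and 450 and 423 bp in OPC (−0.67 ± 0.15, log2, SE). With equal totals Gapdh turned to 0.78 (log2). The nearest SOX6 summit lay 8435 bp from the Gapdh start in OL and 8444 and 8407 bp in 129O1 and EpiSC5 OPC. Over the 45 kept domains with a gene of any list, 43 were tested, 26 were lower and 1 was higher, beside 69.1% lower over all domains tested.

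**Figure D5:**
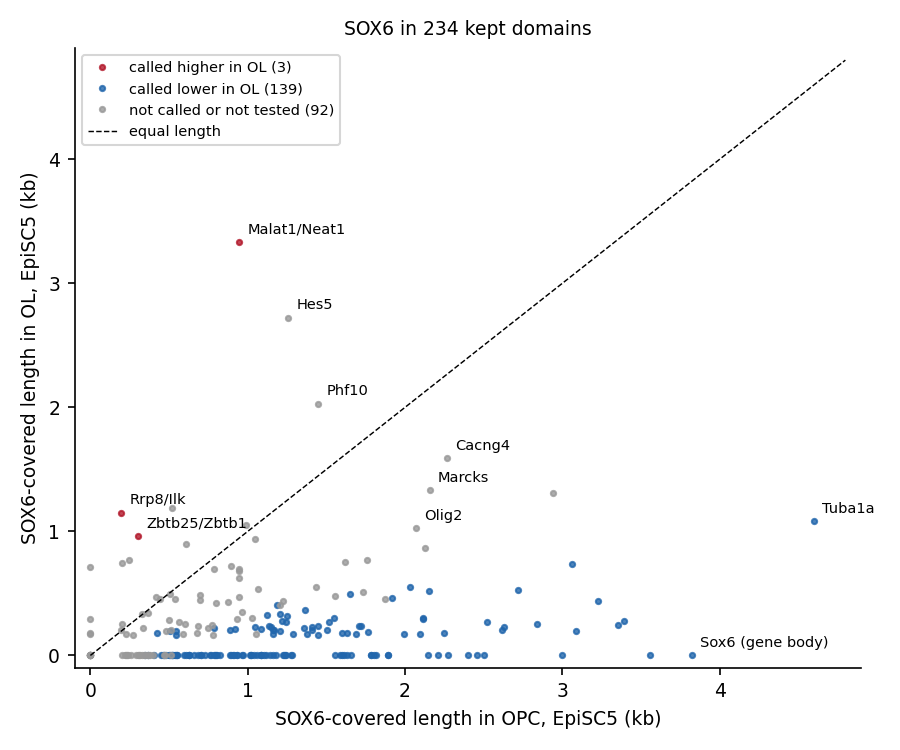
Length covered by SOX6 peaks (kb) in OL against OPC of EpiSC5 at each of the 234 kept domains, coloured by the limma call against both OPC lists; the dashed line marks equal length. Malat1/Neat1 stands at 3334 bp in OL against 947 bp in OPC, and 19 domains in all lie above the line, while the Sox6 gene body lies on the axis at 0 in OL.

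The 2 lines were set side by side on H3K27ac-covered lengths scaled to equal totals. The choice required 6 kb in every list and bounded the ratio within each line, which bounds the difference between lines and the spread it would be tested against, so no test is given. The median difference, EpiSC5 minus 129O1 over both states, was 0.03 over the kept domains, on log2 of scaled kb plus 1.

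Mir9-3 showed the greatest difference of a kept domain. Its scaled length was 16.5 kb in EpiSC5 and 36.3 kb in 129O1 in OL, and 25.9 kb in EpiSC5 and 49.7 kb in 129O1 in OPC. EpiSC5 was the narrower line in both states, with a difference of −1.001 (log2). The Mir181a-1 domain went the other way, with 28.3 kb in EpiSC5 and 17.6 kb in 129O1 in OL and 26.5 and 16.2 kb in OPC, a difference of 0.67 (log2). Notch1 had 13.8 kb in EpiSC5 and 23.2 kb in 129O1 in OL and 22.7 and 30.3 kb in OPC, a difference of −0.55 (log2).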

How the data were processed

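Peak lists of 7 samples were used. Build mm10 and Trim Galore 0.3.1, bedtools, deepTools, Picard and Bowtie2 2.3.2 are named in the submitters' processing notes, with no order. The peak caller is not given in the sources used here. The lists have no header, so their columns were identified from the values. The deposited score is 10 times the −log10 q of a peak, and the authors' fold enrichment is a ratio of signal over background. Scores ranked peaks for shorter lists, and fold enrichment and the deposited −log10 q only describe peaks. Each list is 1 library, and neither depth nor the sequencer of a library could be examined.

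Domains, covered lengths and overlaps of at least 1 bp were computed in Python 3.11.15 and tests were made in limma 3.58.1 (R 4.3.3). Genes, promoters and microRNAs are from RefSeq tables of GRCm38.p6, and a gene belongs to a domain that its annotated body overlaps. Coordinates are 1-based. Exons, and promoter windows on chromosome 18, were not analysed here. In simulated data, the SOX6 fit on 4544 domains called 10 of 50 domains changed by log2 1, 29 at 1.5, 44 at 2 and 50 at 3. It also called 2 of 4344 unchanged ones. The simulated H3K27ac fit on 13099 domains called 40 of 50 at log2 1, 50 at each larger size, and 12 of 12899 unchanged ones. Between the real lines, the fit on unscaled H3K27ac lengths called 0 of 13099 domains, with differences from −2.76 to 2.25 (log2). The simulated counts are thus not used to judge what either fit could find or miss.

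Values are given for the 12 domains with the largest smallest length, the 10 longest in SOX6 in the smaller OPC list and in OL, those without SOX6, up to 5 for each of 15 gene lists, called domains and those beside each limit. Some domains the rule takes are summarised only. The values of 1 domain that the rule takes are not reported here. The members and lists were chosen with earlier results of these data known. Alternatives were other joining distances, lengths, ratios, scalings, pseudocounts and minimums, shorter lists by score and omitted lists.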

Additional observations from a re-analysis of the deposited data

Results flagged for a closer look

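The domain of Cacng4 on chromosome 11 moved in opposite directions in the 2 lines. Its OL to OPC ratio of H3K27ac-covered length was 0.762 in EpiSC5 and 1.496 in 129O1, at least 1.2 times from equality on opposite sides. It covered 7.47 kb in OL and 9.81 kb in OPC of EpiSC5, and 18.996 kb in OL and 12.7 kb in OPC of 129O1. The domain of Farp1 on chromosome 14 did so too, with ratios of 1.33 in EpiSC5 and 0.83 in 129O1. It covered 9.35 kb in OL and 7.05 kb in OPC of EpiSC5, and 11.5 kb in OL and 13.9 kb in OPC of 129O1. These differences between lines were not tested, and the ratios come from the values that chose the domains.

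The X chromosome lay outside the comparisons. Of its 856 domains, 1 met the criteria of the kept domains, from 103531619 to 103565899 over the noncoding gene Ftx. It covered 11.9 and 7.13 kb in OL and 8.13 and 8.19 kb in 129O1 and EpiSC5 OPC, and held no SOX6 peak in OL, against 5 and 4 in 129O1 and EpiSC5 OPC.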

How the results depend on the processing

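The number of kept domains followed the criteria. It was 234 as chosen, 101 with peaks joined within 5000 bp and 355 within 20000 bp, 538 with at least 4 kb and 63 with at least 10 kb, 110 with a narrower ratio band, and 102 from the higher-scoring 50% of each H3K27ac list. Those sets held 85, 208, 234, 63, 110 and 90 of the 234. With lengths scaled to equal totals 231 were kept, of which 172 were among the 234. By 1 line alone the number was 264 (EpiSC5) and 528 (129O1). SOX6 in both OPC lists fell to 129 domains with equal numbers of SOX6 peaks, while SOX6 in OL fell to 77 and SOX6 in OPC and OL of EpiSC5 to 61 from the higher-scoring 50%, and the last to 77 with equal numbers. Without either OPC list, 220 to 233 had SOX6 in OPC.

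Kept domains called lower in OL for SOX6 numbered 85 with equal totals, 70 with equal numbers and 0 with no minimum, against 139. Those called higher numbered 27, 5 and 0 under these settings and 1 from the higher-scoring 50%, against 3. Of 26 named domains 11 changed direction with equal totals, 7 with equal numbers and 5 from the higher-scoring 50%. With equal totals the log2 difference was 0.072 at Gab1, 0.87 at let-7, 1.07 at Chd2, 2.08 at Phf10, 0.40 at Tuba1a, 1.00 at Fam222b, 2.24 at Hes5, 1.69 at Cacng4, 1.92 at Hsp90ab1, 1.87 at Actb and 1.45 at Marcks. With equal numbers it was 0.043 at let-7, 1.55 at Phf10, 0.39 at Fam222b, 0.54 at Hes5, 2.53 at Hsp90ab1, 2.38 at Actb and 1.47 at Marcks. From the higher-scoring 50% it was 0.14 at Phf10, 0.091 at Hes5, 0.60 at Hsp90ab1, 0.99 at Actb and 0.0014 at Marcks. Without either OPC list it ran −0.88 to 0.43 at Phf10, −1.18 to 0.98 at Hes5, −1.48 to 0.91 at Hsp90ab1 and −0.69 to 0.075 at Actb.

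Between lines the planned limma fit called 0 kept domains (21 at an unadjusted p under 0.05), 2 with no minimum and 3 with a minimum of 3 kb, and 0 to 0 when 1 list was left out with no state term, a setting chosen after seeing the data. The choice of domains bounds the spread in this fit, so these calls support nothing. The cause of these shifts was not tested. The state term of the line comparison sets the lines against each other within each state, and does not pair OL with OPC of a line. For SOX6 no replicated test pairing OL with OPC of a line was possible. Only EpiSC5 had both states, and its 2 lists are compared above as values alone. SOX6 in OL was mapped in 1 line, so a term for the line leaves no residual degree of freedom. Unknown depth limits every absence of a peak.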
